A study of Caenorhabditis elegans with 8 samples.

Results

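The genes described here encode the TIR-1 to p38 kinase module of *Caenorhabditis elegans* and the calcium and claudin-like proteins that feed it in the AWC olfactory neurons. Of 10 genes chosen by name (tir-1, nsy-1, sek-1, pmk-1, pmk-2, atf-7, vhp-1, unc-43, nsy-4 and unc-36), 9 had a probe set that the platform annotation assigned to them, out of 25478 genes measured. No probe set was matched to nsy-1, so the kinase between TIR-1 and SEK-1 was not analysed here. Each of the 9 had a single probe set.

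Messenger RNA was measured in whole worms of 2 groups, both synchronised by bleaching, fed *Escherichia coli* OP50, left without treatment and collected on day 1 of adulthood. The groups were mir-71(n4115), a strain whose microRNA gene mir-71 is mutated (4 arrays), and wildtype, the laboratory strain N2 (4 arrays). How far the n4115 lesion reaches was not stated in the labels, and no probe set named for mir-71 was used, so the mutated gene itself could not be read. The comparison asked which transcripts differ when mir-71 is mutated, and tir-1 has been reported elsewhere as a gene on which mir-71 acts in AWC neurons.

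TIR-1 is a TIR-domain adaptor related to mammalian SARM1. It activates a kinase relay in which NSY-1 (a MAP kinase kinase kinase of the ASK family) phosphorylates SEK-1, and SEK-1 phosphorylates the p38 kinases PMK-1 and PMK-2. In the intestine this relay drives antimicrobial genes through the transcription factor ATF-7, and the phosphatase VHP-1 restrains it. In the pair of AWC neurons, calcium entering through channels that carry the UNC-36 subunit activates the calmodulin-dependent kinase UNC-43, which acts through TIR-1, NSY-1 and SEK-1 to set which neuron expresses the receptor gene str-2. NSY-4, a claudin-like membrane protein, opposes that calcium signal. Both neurons make up a minute share of a whole worm.

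The deposited values are log2 signals after RMA, a method that normalises arrays to each other, so a unit of 1 is a doubling. A difference is mir-71(n4115) minus wildtype on that scale. Calls rest on limma, a linear model fitted to all 26192 named probe sets, with Benjamini-Hochberg adjustment over all of them and a threshold of 0.05. Replicates are numbered 1 to 4 in each group with no word on separate cultures. The p-values therefore cover the spread between these arrays only, which may be technical. In bulk RNA of this kind, fewer cells of a type and less RNA per cell cannot be told apart.

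Wildtype replicate 4 stood apart from its group. Across all probe sets its correlations ranged from 0.986 to 0.993 with mutant arrays, and from 0.961 to 0.976 with wildtype replicates 1 to 3. On the first principal component (65.5% of the variance) it lay at 39.9, between mutant arrays at 22.7 to 49.8, while wildtype replicates 1 to 3 lay at -73.2 to -47.5. It is kept in the wildtype group as labelled, and the values of the 9 genes, of the gene lists and of the genes named from those lists are also given without it.

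None of the 9 genes passed the test over all 8 arrays, where 1.84% of all genes did. The 9 genes nevertheless leaned upward: 8 of 9 differences were positive, with a median of 0.38, beside 51.8% positive and a median of 0.02 over all genes. At an unadjusted p under 0.05, 5 of the 9 were higher in mutants and 0 lower, where 13.2% of all genes were higher at that level. Without wildtype replicate 4, 6 of 9 rose (tir-1, sek-1, pmk-2, atf-7, unc-43 and nsy-4) and 0 fell, in a fit that called 36.9% of all genes and 19.1% as higher. For 8 of the 9, wildtype replicate 4 lay nearer to the mutant mean than to the mean of wildtype replicates 1 to 3, as it did for 72.2% of all genes.

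**Figure D1:**
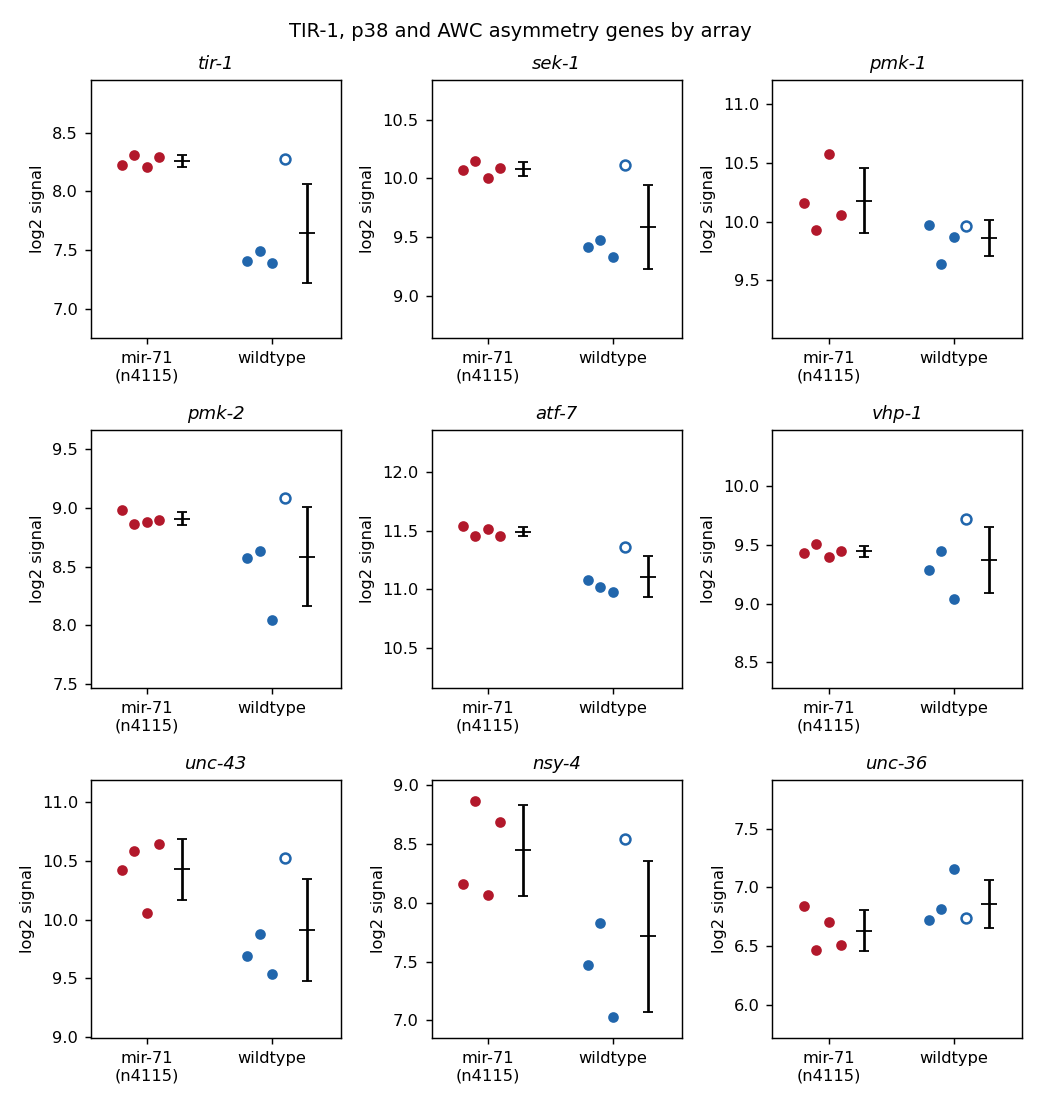
Log2 signal of the 9 measured genes in each array. Red points are mir-71(n4115) replicates 1 to 4, blue points wildtype replicates 1 to 3 and the open blue point wildtype replicate 4. Black marks are the mean and SD of each group of 4, and every panel spans the same number of log2 units. In 7 of 9 panels the open point lies above the other wildtype points.

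Upstream of TIR-1, unc-36, which encodes the alpha2-delta subunit of voltage-gated calcium channels, was the only one of the 9 with a negative difference. Its log2 signals were 6.84, 6.47, 6.71 and 6.50 in mir-71(n4115) replicates 1 to 4, against 6.72, 6.81, 7.16 and 6.74 in wildtype replicates 1 to 4. The groups overlapped, since mutant replicate 1 lay above 3 of the wildtype arrays. The difference was -0.23 ± 0.14 (SE, n = 4 per group; 95% interval -0.55 to 0.10; limma, adjusted p = 0.32), and -0.27 without wildtype replicate 4 (adjusted p = 0.187).

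The CaMKII gene unc-43 read 10.43, 10.59, 10.06 and 10.64 in mutants, against 9.69, 9.88, 9.54 and 10.53 in wildtype. The mutants all lay above wildtype replicates 1 to 3, but wildtype replicate 4 lay within the mutant range. Over all arrays the difference was 0.52 ± 0.23 (SE; 95% interval 0.01 to 1.03; adjusted p = 0.185). Once wildtype replicate 4 was left out, unc-43 rose by 0.72 (adjusted p = 0.00807).

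The claudin-like gene nsy-4 had the largest difference of the 9. It read 8.16, 8.87, 8.07 and 8.68 in mutants, against 7.47, 7.83, 7.02 and 8.54 in wildtype. Both groups were spread widely, with SDs of 0.39 in mutants and 0.64 in wildtype, and wildtype replicate 4 lay above mutant replicates 1 and 3. The difference of 0.73 ± 0.32 (SE; 95% interval 0.01 to 1.45), a 1.66-fold higher signal, had an adjusted p of 0.185. Without wildtype replicate 4 it was 1.01 and passed (adjusted p = 0.0120).

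The adaptor gene tir-1 read 8.23, 8.31, 8.20 and 8.29 in mutants, against 7.40, 7.50, 7.39 and 8.27 in wildtype. The mutants lay close together, as did wildtype replicates 1 to 3, and wildtype replicate 4 fell within the mutant range. The difference over all arrays was 0.62 ± 0.20 (SE; 95% interval 0.17 to 1.06; adjusted p = 0.114). Measured from wildtype replicates 1 to 3, the mutants were 0.83 higher and wildtype replicate 4 was 0.84 higher. With wildtype replicate 4 left out, tir-1 rose by 0.83 (adjusted p = 4.21e-04).

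The kinase gene sek-1 ran closely parallel to tir-1. It read 10.07, 10.14, 9.9999 and 10.09 in mutants, against 9.42, 9.47, 9.33 and 10.11 in wildtype, again with wildtype replicate 4 inside the mutant range. The difference was 0.49 ± 0.17 (SE; 95% interval 0.10 to 0.89; adjusted p = 0.132), and 0.67 without wildtype replicate 4, where it passed (adjusted p = 0.00120). The within-array log2 ratio of tir-1 to sek-1 varied over the 8 arrays with an SD of 0.08, the smallest of the 36 ratios among the 9 genes. The widest was that of nsy-4 to unc-36, with an SD of 0.82. How many genes outside the 9 had as steady a ratio to tir-1 was not counted. Those named below as nearest in pattern lay closer to tir-1 than sek-1 did.

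The p38 genes pmk-1 and pmk-2 are neighbours on chromosome IV, next to another p38 gene, pmk-3, and their arrays did not move alike. For pmk-1 the signals were 10.16, 9.93, 10.57 and 10.06 in mutants, against 9.97, 9.64, 9.87 and 9.96 in wildtype. Mutant replicate 3 was the highest, mutant replicate 2 lay below 2 wildtype arrays, and wildtype replicate 4 lay within the ranges of both the mutants and the other wildtype arrays. For pmk-2 the signals were 8.99, 8.86, 8.88 and 8.89 in mutants, against 8.58, 8.64, 8.05 and 9.08 in wildtype, where replicate 4 was the highest of all arrays and replicate 3 the lowest.

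The differences of both p38 genes were close in size. That of pmk-1 was 0.32 ± 0.16 (SE; 95% interval -0.04 to 0.68; adjusted p = 0.228) and that of pmk-2 was 0.32 ± 0.20 (95% interval -0.12 to 0.76; adjusted p = 0.310). Without wildtype replicate 4, pmk-2 rose by 0.49 (adjusted p = 0.0339), while pmk-1 differed by 0.35 and did not pass (adjusted p = 0.132). pmk-3, which is no member of the group and was added here as the neighbour of pmk-2 after its values were seen, averaged 9.39 ± 0.10 in mutants and 9.17 ± 0.25 in wildtype (SD, n = 4 each; adjusted p = 0.336). Its difference was 0.33 without wildtype replicate 4 (adjusted p = 0.0586).

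Of the 9 genes, atf-7 alone had every mutant array above every wildtype array, as 6.0% of all genes did. This bZIP transcription factor is the output of the relay in immunity. It read 11.54, 11.46, 11.52 and 11.46 in mutants, against 11.08, 11.02, 10.98 and 11.36 in wildtype. Wildtype replicate 4 lay between the mutants and the other wildtype arrays, 0.13 below the mutant mean and 0.33 above the mean of wildtype replicates 1 to 3. The difference was 0.38 ± 0.12 (SE; 95% interval 0.12 to 0.65), a 1.30-fold higher signal, with the lowest adjusted p of the 9 at 0.108. Without wildtype replicate 4 it was 0.47 and passed (adjusted p = 0.00568).

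The phosphatase gene vhp-1, whose product switches the kinases off, differed least. It read 9.43, 9.51, 9.40 and 9.45 in mutants, against 9.29, 9.45, 9.04 and 9.72 in wildtype. The mutants sat inside the wildtype range, with wildtype replicate 4 the highest and wildtype replicate 3 the lowest of the 8 arrays. The difference was 0.07 ± 0.15 (SE; 95% interval -0.26 to 0.41; adjusted p = 0.771), and its sign depended on single arrays, at -0.036 without wildtype replicate 3 and 0.19 without wildtype replicate 4 (adjusted p = 0.256).

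Set against vhp-1 within each array, tir-1, sek-1 and atf-7 were higher in mutants with no overlap between groups. The log2 ratio of tir-1 to vhp-1 was higher by 0.54 in mutants, with arrays from -1.20 to -1.16 in mutants and from -1.95 to -1.44 in wildtype, replicate 4 included. The ratio of sek-1 to vhp-1 was higher by 0.42, from 0.60 to 0.64 in mutants and from 0.03 to 0.40 in wildtype. That of atf-7 to vhp-1 was higher by 0.31. Only the change of such a ratio between groups can be read, not its level. Of all other genes, 7.28% had a ratio to vhp-1 that was higher in mutants without overlap. The ratios of pmk-1 and atf-7 to unc-36 were likewise apart, by 0.55 and 0.61, as were 9.97% of such ratios to unc-36. The other 31 of 36 ratios among the 9 genes overlapped between groups. These ratios were chosen after the values were seen and were not tested.

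Gene length moved with the differences. Among protein-coding genes, the median difference was -0.20 for genes under 1 kb, 0.01 for 2 to 5 kb and 0.52 for genes over 20 kb, of which 94.4% were positive. Wildtype replicate 4 showed the same gradient against wildtype replicates 1 to 3, with medians of -0.31 for genes under 1 kb and 0.82 for genes over 20 kb. In the RefSeq annotation tir-1 spans 32.1 kb, unc-43 26.0 kb and vhp-1 17.6 kb. The other 6 genes span 2.47 to 7.42 kb.

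Beside genes of like length, the 9 genes sorted differently from how they sorted by size of difference. tir-1 (0.62) and unc-43 (0.52) lay within the middle 50% of the 178 genes over 20 kb, whose quartiles were 0.32 and 0.65. vhp-1 (0.07) lay below the lower quartile, 0.15, of the 727 genes of 10 to 20 kb. Among 2152 genes of 5 to 10 kb, with quartiles of -0.01 and 0.48, atf-7 and pmk-2 lay inside and unc-36 lay below. Among 6663 genes of 2 to 5 kb, nsy-4, sek-1 and pmk-1 all lay above the upper quartile of 0.25.

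**Figure D2:**
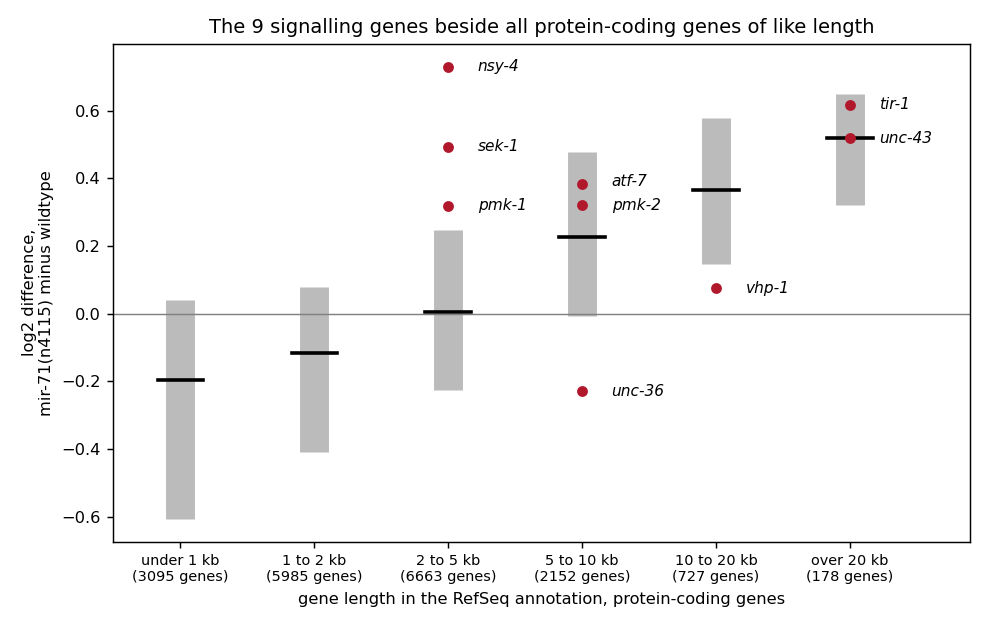
Log2 difference, mir-71(n4115) minus wildtype, by gene length for protein-coding genes. Grey bars span the lower to upper quartile and black lines mark the median of each length band, with the number of genes in brackets. Red points are the 9 signalling genes: tir-1 and unc-43 lie inside the bar for genes over 20 kb, while nsy-4, sek-1 and pmk-1 lie above the bar for 2 to 5 kb.

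After subtraction of the length trend from each array, 0 of the 9 passed, in a fit that called 2.10% of protein-coding genes. tir-1 then differed by 0.09 ± 0.10 (SE; adjusted p = 0.540) and unc-43 by 0.03 (adjusted p = 0.869). nsy-4 kept a difference of 0.75 (adjusted p = 0.173), sek-1 of 0.38 (adjusted p = 0.137) and pmk-1 of 0.36 (adjusted p = 0.174). atf-7 came down to 0.13 (adjusted p = 0.382) and pmk-2 to 0.16 (adjusted p = 0.493). vhp-1 turned negative, at -0.34 (adjusted p = 0.112), and unc-36 stood at -0.48 (adjusted p = 0.156).

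With the length trend removed and wildtype replicate 4 left out together, sek-1 rose by 0.52 (adjusted p = 0.00228) and nsy-4 by 1.03 (adjusted p = 0.0106). In the same fit vhp-1 fell by 0.40 (adjusted p = 0.0104) and unc-36 fell by 0.62 (adjusted p = 0.0158). That fit called 41.4% of protein-coding genes, so 4 of 9 is close to its background. There tir-1 differed by 0.08 (adjusted p = 0.531), and pmk-1 by 0.41 (adjusted p = 0.0659). Nor did atf-7 pass, at 0.12 (adjusted p = 0.348), or pmk-2, at 0.26 (adjusted p = 0.143), or unc-43, at 0.03 (adjusted p = 0.865).

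**Figure D3:**
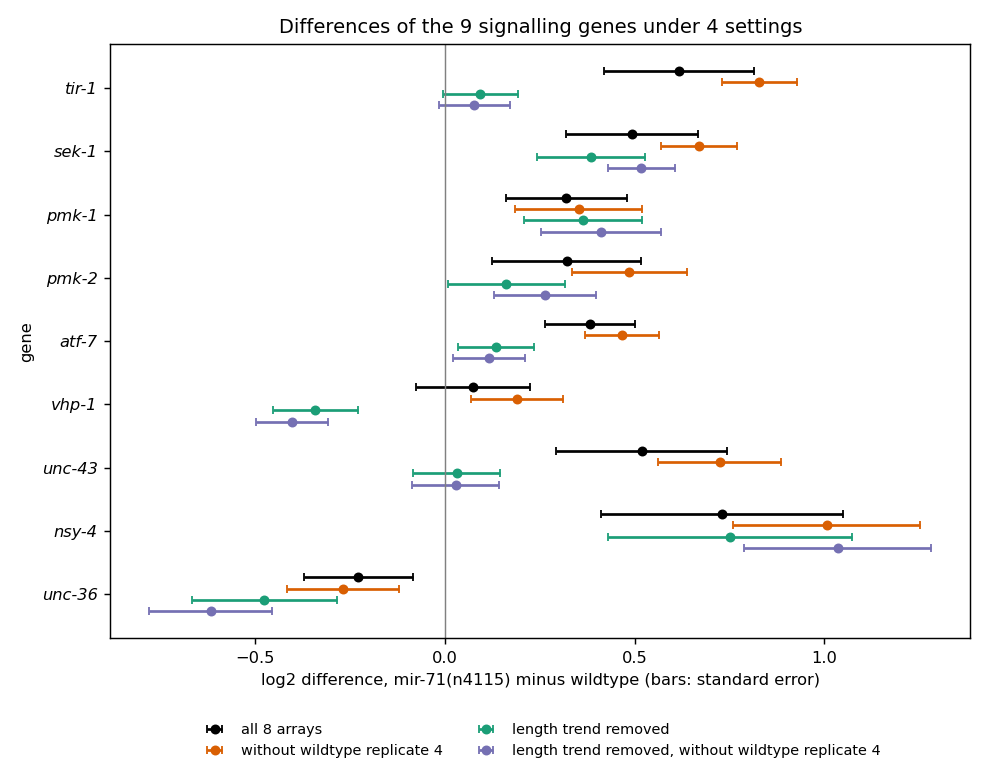
Log2 difference, mir-71(n4115) minus wildtype, of the 9 genes under 4 settings, with bars of 1 standard error. Black is the fit to all 8 arrays, orange leaves out wildtype replicate 4, green removes the trend with gene length and purple does both. The values of tir-1 and unc-43 move to near 0 with the trend removed, vhp-1 changes sign, and nsy-4 stays between 0.73 and 1.03.

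The genes whose pattern over the 8 arrays was nearest to that of tir-1, by root mean square difference of centred log2 signals, were dep-1 (0.04), phf-15 (0.04), let-526 (0.05), rab-1 (0.05) and grk-1 (0.05). All 5 were higher in wildtype replicate 4 than in wildtype replicates 1 to 3, by 0.80 to 0.93. Nearest to atf-7 were eor-2 (0.02), H20J04.4 (0.04), tag-131 (0.05), C41D11.3 (0.05) and ZK742.3 (0.05).

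Around the relay, 32 of 34 listed regulators and partners of p38 signalling were measured and 0 were called, with 8 higher and 2 lower at an unadjusted p under 0.05 (limma), a level that 26.1% of all genes passed in either direction. Their median was 0.24, and 0.14 with the length trend removed. The lowest p belonged to plc-3, a phospholipase C that acts above PMK-1 in the epidermis, and elt-2, the GATA factor of the intestine. plc-3 read 8.79, 8.64, 8.70 and 8.74 in mutants, against 8.20, 8.20, 8.08 and 8.64 in wildtype (difference 0.43 ± 0.14 SE, adjusted p = 0.115), and rose by 0.55 without wildtype replicate 4 (adjusted p = 0.00307). elt-2 averaged 9.47 in mutants and 8.85 in wildtype, a difference of 0.62 ± 0.20 (SE; adjusted p = 0.118), and rose by 0.77 without that wildtype array (adjusted p = 0.00700). Once it was left out, 15 of the 32 rose and 1 fell, in the fit that called 19.1% of all genes higher and 17.8% lower.

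Of 27 names listed for partners in AWC asymmetry and calcium entry, 25 matched a measured gene and 0 were called. At an unadjusted p under 0.05 (limma), 13 were higher and 1 lower, where 13.2% of all genes were higher and 26.1% passed in all. The list's median of 0.54 lay above that of the 9 genes. The homeobox gene mls-2, a regulator of AWC development, read 8.81, 8.67, 8.56 and 8.80 in mutants, against 7.18, 7.59, 7.24 and 8.51 in wildtype (difference 1.08 ± 0.27 SE, adjusted p = 0.0763). The groups did not overlap, and mls-2 rose by 1.37 without wildtype replicate 4 (adjusted p = 1.85e-04). The SoxB factor gene sox-2 was also apart, at 9.16 ± 0.04 in mutants and 8.32 ± 0.49 in wildtype (SD, n = 4 each; difference 0.84, adjusted p = 0.0831), and rose by 1.07 without wildtype replicate 4 (adjusted p = 4.77e-04). With that array left out, 18 of the 25 rose and 2 fell, where 36.9% of all genes were called. The 2 that fell were nsy-7 (-0.59, adjusted p = 0.00929) and cnb-1 (-0.70, adjusted p = 0.00139), named after their values were seen. Over all 8 arrays nsy-7 differed by -0.39 (adjusted p = 0.251) and cnb-1 by -0.50 (adjusted p = 0.157). Removal of the length trend brought the median of the list to 0.18 and that of the 9 genes to 0.13.

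Genes of AWC neurons and of the odour response went both ways, from -0.83 (odr-10) to 0.56 (arr-1), with a median of 0.05 over 17 of 18 listed genes. None was called (limma, 0 of 17), and 2 were higher and 1 lower at an unadjusted p under 0.05, where 26.1% of all genes passed. The asymmetric receptor genes were dim: str-2, the marker of one AWC fate, averaged 2.31 in mutants and 2.26 in wildtype, and srsx-3, the marker of the other, averaged 2.89 in mutants and 3.43 in wildtype. Array medians lay between 5.20 and 5.30, so whole-worm signal for the 2 fates was near the bottom of the scale. Without wildtype replicate 4, srsx-3 fell by 0.75 (adjusted p = 0.0288) and str-2 differed by 0.02 (adjusted p = 0.902). The guanylate cyclase gene odr-1 was likewise dim, at 3.35 in mutants and 3.40 in wildtype (these 3 genes and arr-1 were named after their values were seen). All 9 signalling genes, in contrast, lay above the array median in every array.

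The lowest p in that list belonged to grk-2, a G protein-coupled receptor kinase, and odr-10. The product of odr-10 is the diacetyl receptor of AWA neurons, so its value is not one for AWC. grk-2 averaged 8.45 ± 0.19 in mutants and 7.90 ± 0.37 in wildtype (SD, n = 4 each; adjusted p = 0.132), and rose by 0.74 without wildtype replicate 4 (adjusted p = 0.00242). odr-10 read 4.34, 4.13, 4.73 and 4.02 in mutants, against 5.49, 5.56, 5.30 and 4.20 in wildtype (difference -0.83 ± 0.30 SE, adjusted p = 0.138), and fell by 1.15 without wildtype replicate 4 (adjusted p = 0.00129). In that fit 3 of the 17 rose and 2 fell, a smaller share than the 36.9% of all genes called.

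Immune and stress effector genes went both ways. All 28 listed were measured, and 3 rose (hsp-16.2, irg-5 and clec-85) and 4 fell (cnc-2, irg-1, lys-7 and cnc-4), where 1.84% of all genes were called. The list is not one of PMK-1 targets alone: irg-1 is known to be induced through ZIP-2 independently of PMK-1, hsp-16.2 is a heat shock gene, and cnc-2 is known as a target of the DBL-1 TGF-beta pathway. The list's median was -0.07. irg-5, an intestinal infection response gene, read 7.52, 7.42, 7.47 and 7.36 in mutants, against 6.42, 5.92, 6.28 and 5.41 in wildtype (difference 1.44 ± 0.21 SE, adjusted p = 0.0151). Wildtype replicate 4 was here the array farthest from the mutants. clec-85, a C-type lectin gene, rose by 1.11 (adjusted p = 0.0465), and hsp-16.2 rose by 2.01 (adjusted p = 0.00667). The wildtype mean of hsp-16.2, 2.91, lay below the array medians. Without wildtype replicate 4, irg-5 rose by 1.24, clec-85 by 1.30 and hsp-16.2 by 1.83 (adjusted p = 2.96e-04, 8.02e-04 and 1.81e-04).

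The fallen effector genes were led by cnc-2, an epidermal antimicrobial peptide gene, at 5.41 ± 0.42 in mutants and 8.37 ± 0.97 in wildtype (SD, n = 4 each; adjusted p = 0.0175). lys-7, a lysozyme gene, fell by 1.78 (adjusted p = 0.0316), irg-1 fell by 1.01 (adjusted p = 0.0183) and cnc-4, named after its values were seen, fell by 1.46 (adjusted p = 0.0402). Once wildtype replicate 4 was left out, these 4 fell by 3.44 (cnc-2), 2.14 (lys-7), 1.02 (irg-1) and 1.73 (cnc-4), and in all 8 of the 28 rose and 11 fell, where 19.1% of all genes rose and 17.8% fell. Without any other single array, 1 or 2 rose and 0 to 2 fell, in fits that called 0.149% to 0.699% of all genes. The T24B8.5 gene sysm-1, a common reporter of PMK-1 activity, did not pass, with a difference of 0.14 ± 0.29 (SE, adjusted p = 0.779). Without wildtype replicate 4 it was -0.11 (adjusted p = 0.723). Other effector genes not called went both ways, such as C17H12.8 (0.77, adjusted p = 0.0792), irg-4 (0.62, adjusted p = 0.108) and K08D8.5 (-0.84, adjusted p = 0.0874). These passed without wildtype replicate 4, at 0.63, 0.60 and -1.09 (adjusted p = 0.0184, 0.0466 and 1.92e-04). Of the effector genes not called, nlp-29 and nlp-34 differed most, at -1.57 (adjusted p = 0.103) and -1.11 (adjusted p = 0.0874). Both passed without wildtype replicate 4, at -2.06 and -1.35 (adjusted p = 4.74e-04 and 0.00283). sysm-1 and these genes were named after their values were seen. Of the 28 differences, 13 were positive.

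The list of other MAP kinase cascades, such as the Ras and ERK cascade, leaned the same way. Of 22 names listed, 19 matched a measured gene and 0 were called. With an unadjusted p under 0.05 (limma), 10 were higher and 1 lower, where 26.1% of all genes passed. The list's median was 0.42, next to 0.38 for the 9 genes, and these were 0.11 and 0.13 with the length trend removed. sem-5, the Grb2 adaptor of Ras signalling, averaged 10.89 ± 0.10 in mutants and 10.44 ± 0.10 in wildtype (SD, n = 4 each; difference 0.45, adjusted p = 0.0753). mig-15, a Ste20-type kinase gene, averaged 9.10 in mutants and 8.45 in wildtype (adjusted p = 0.113). With wildtype replicate 4 left out, sem-5 rose by 0.50 (adjusted p = 0.00592) and mig-15 by 0.85 (adjusted p = 9.82e-04), and 14 of the 19 rose and 2 fell, where 36.9% of all genes were called.

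**Figure D4:**
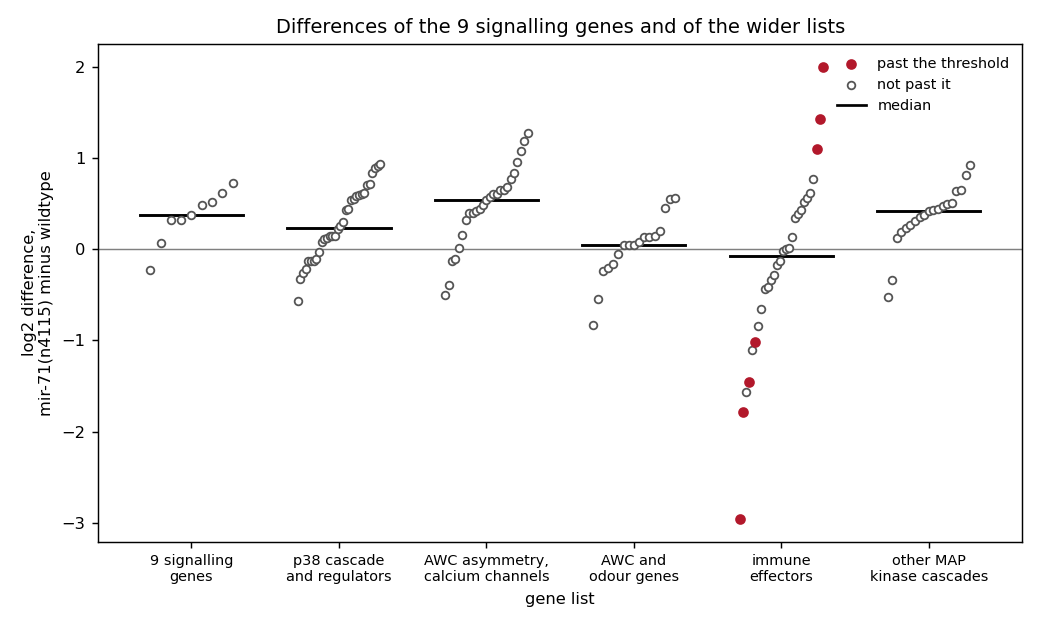
Log2 difference, mir-71(n4115) minus wildtype, of each measured gene of 6 lists, sorted within each list. Filled red points passed the threshold of 0.05 on the adjusted p, open points did not, and black lines are list medians. The 7 called genes all belong to the effector list, while the AWC asymmetry list has the highest median, 0.54.

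Of the tissue marker lists, only that of sperm had a mean signal with no overlap between the groups over all 8 arrays. In the neuron, epidermis, muscle and oocyte lists wildtype replicate 4 lay nearer to the mutants, and the groups overlapped through that array. In the sperm list it lay with its own group. The mean log2 signal of 10 neuron markers ran from 8.95 to 9.02 in mutants, against 8.40 to 8.55 in wildtype replicates 1 to 3 and 9.06 in wildtype replicate 4. That of 14 epidermis markers ran from 8.49 to 8.64 in mutants, against 7.72 to 7.99 in wildtype replicates 1 to 3 and 8.54 in wildtype replicate 4. That of 8 body wall muscle markers ran from 9.67 to 10.09 in mutants, against 9.41 to 9.49 in wildtype replicates 1 to 3 and 10.12 in wildtype replicate 4. The 9 intestine markers overlapped, from 9.65 to 9.85 in mutants and from 9.76 to 9.93 in wildtype. The 14 oocyte and early embryo markers ran from 11.27 to 11.48 in mutants, against 11.02 to 11.23 in wildtype replicates 1 to 3 and 11.47 in wildtype replicate 4. The 14 sperm markers ran from 4.72 to 5.03 in mutants, against 5.58 to 5.73 in wildtype replicates 1 to 3 and 5.72 in wildtype replicate 4. Calls were 2 higher for epidermis, 7 lower for sperm and 0 for the other 4 lists. Of all genes, 0.616% were called higher and 1.22% lower. The part of tissue proportions in the values of the 9 genes was not tested.

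At the mir-71 locus wildtype replicate 4 lay nearer to its own group. The host gene ppfr-1 read 11.97, 11.88, 11.86 and 11.91 in mutants, against 10.98, 11.09, 10.80 and 11.23 in wildtype, and rose by 0.88 (adjusted p = 0.0138), or by 0.95 without wildtype replicate 4 (adjusted p = 3.69e-04). It kept its sign but did not pass in 8 of the 20 alternative settings. ppfr-1 spans 25884 bases, and genes over 20 kb had a median difference of 0.52. Among the 9 genes wildtype replicate 4 lay within the mutant range for tir-1, sek-1, pmk-1, unc-43, nsy-4 and unc-36, above it for pmk-2 and vhp-1, and below it for atf-7.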

How the data were processed

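RNA of 4 mir-71(n4115) and 4 wildtype samples was hybridised to 1-colour Affymetrix arrays. The deposited values are log2 signals for 29317 probe sets, made by the authors with Partek 6.6 and RMA, per the submitters' processing notes; their order, their settings and the genome build are not stated there. The log2 scale was read from the range, 1.15 to 13.5. They were used as deposited, and RMA hides any change that most genes share.

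Names came from the platform annotation at GEO (26192 named, 646 with several genes, which name none) and symbols updated through RefSeq (WBcel235), where 25495 matched. A gene is its brightest probe set. limma 3.58.1 in R 4.3.3 (lmFit, eBayes, 2-sided) compared 4 mutants with 4 wildtypes without covariates. The fit was also run on simulated data whose spread came from the mutant arrays alone. That run held no array like wildtype replicate 4, so it cannot show how the fit behaves with it. The length trend was a lowess curve (span 0.3) over protein-coding probe sets. The precision is limited by 4 arrays per group, and detection above background could not be judged.

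The 10 genes and the lists were chosen with earlier results of these data known. Named genes are all members, from each wider list up to 3 called genes each way or the 2 with the lowest p, and ppfr-1. To these come the 5 nearest patterns to tir-1 and to the member with the lowest p other than tir-1. Marker lists covered neurons, intestine, epidermis, sperm, oocytes and muscle. Alternatives were quantile normalisation, array medians, replicate block, eBayes with trend, array weights, an unmoderated model, dim probe sets left out, stricter thresholds, median probe sets, the length trend and each array left out.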

Additional observations from a re-analysis of the deposited data

Results flagged for a closer look

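In 25 genes with 2 groups of 4 arrays each, 3 of 50 groups held an array whose gap to its nearest neighbour, relative to the group's range, exceeded Dixon's critical value, which about 1 in 20 groups does when nothing is amiss. All 3 were wildtype replicate 4. For tir-1 it read 8.27, against 7.39 to 7.50 in the other wildtype arrays. For grk-2 it read 8.45, against 7.66 to 7.77. For cnc-2 it read 6.92, against 8.73 to 9.01. Among the wildtype arrays, sek-1, pmk-2, vhp-1, unc-43 and nsy-4 showed the same order as tir-1 with a smaller relative gap.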

How the results depend on the processing

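Over 20 alternatives the 9 genes gave 180 values, of which 162 kept sign and side of the threshold, 15 kept sign and newly passed, and 3 changed sign. All 3 were vhp-1, at -0.036 without wildtype replicate 3 (single arrays left out gave -0.036 to 0.19), -0.34 with the length trend removed and -0.40 with that and wildtype replicate 4 left out. The last of these also passed (limma, adjusted p = 0.0104). With each array left out in turn, 0 to 6 of the 9 were called higher and 0 lower; 6 were called with array weights, and 2 higher and 2 lower with the length trend removed and without wildtype replicate 4. Array weights called 41.1% of all genes. In the wider lists, given as higher and lower calls under array weights, then with trend and replicate 4 both removed, p38 regulators had 16 and 1, then 10 and 3; AWC asymmetry partners 19 and 2, then 11 and 4; AWC neuron genes 3 and 2, then 2 and 2; effectors 8 and 12, then 10 and 11; other MAP kinase genes 14 and 2, then 7 and 2. With single arrays left out the higher calls ranged from 0 to 15, 0 to 18, 0 to 3, 1 to 8 and 0 to 14 in the same order of lists, and the lower calls from 0 to 1, 0 to 2, 0 to 2, 0 to 11 and 0 to 2. Effectors had 0 higher and 0 lower calls in the unmoderated model, which called 18 genes in all, and 1 higher and 0 lower at an adjusted p of 0.01. The cause of these moves was not tested.

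The replicate block called 345 genes in place of 469 and 0 of the 9 (adjusted p of tir-1 0.0913, of nsy-4 0.0810). Deviations of same-numbered samples correlated at -0.11 to 0.37, so the numbers were not taken as a pairing. The block gave 3 effectors higher and 3 lower, where lys-7 no longer passed. Other counts over all genes that moved by more than 1.5 times were 23 at an adjusted p of 0.01, 9401 without wildtype replicate 4 and 38 to 178 without one of the other arrays.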
